A study of Rattus norvegicus with 48 samples.

Results

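The microRNAs (miRNAs) miR-142, miR-223 and miR-150, which blood-derived cells carry into the liver, were followed in the livers of rats given thioacetamide (TAA), a liver toxicant and carcinogen. The members were named by their identifiers, with no measured value in the rule, as rno-miR-142-3p, rno-miR-142-5p, rno-miR-223-3p and rno-miR-150-5p. They were 4 of the 664 mature miRNAs with at least 1 read, out of 764 listed, and all 4 passed the filter on low values that left 301 miRNAs to test. Male Sprague-Dawley rats received TAA once a day at 4.5 (low), 15 (middle) or 45 (high) mg/kg for 3, 7, 14 or 28 days, and the controls of each time point received the vehicle alone. Each of the 16 groups had 3 libraries of small RNA from whole liver pieces, which the study describes as biological replicates, and the libraries are named here by the replicate numbers of the labels. A condition below is 1 dose at 1 time point, which gave 12 conditions, and the 3 doses of a time point shared the same 3 controls.

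MiR-142 is made in cells of all blood lineages, and its hairpin yields 2 mature strands, one from each arm. MiR-223 is known from the myeloid lineage, above all neutrophils and their precursors, and miR-150 from mature B and T lymphocytes. In whole liver these miRNAs come with resident macrophages and lymphocytes and with the leukocytes of the blood that the tissue holds, so that in bulk samples fewer cells of a type and less RNA per cell cannot be told apart. The paired arms of miR-142 and the strand of miR-223 that was counted most are shown with their seeds, the bases 2 to 8 that pair with targets, in capitals.
miR-142-3p: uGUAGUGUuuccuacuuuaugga
miR-142-5p: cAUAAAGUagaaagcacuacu
miR-223-3p: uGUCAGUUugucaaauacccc
The sequences are those of RefSeq for the rat build GRCr8, which also places both miR-142 strands in the hairpin gene Mir142 on the plus strand, miR-142-3p at chr10:73055155-73055177 and miR-142-5p at chr10:73055119-73055139. RefSeq places miR-223-3p on the plus strand at chrX:65151450-65151470, in the hairpin gene Mir223. The seeds of these 3 strands differed from each other, and no other miRNA with a read and an entry in the RefSeq table carried any of them.

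Library totals ranged from 293331 to 14906217 counts. The lowest was control 3-d replicate 1, against 4829217 for the next, and this library also stood apart in its content. Levels are given as normalized RPM, the reads of a miRNA per 1000000 reads of its library after upper quartile scaling. The library held 81096 normalized RPM of 4 red blood cell miRNAs together, where the other 11 control libraries reached 6781 at most. At its low total it held only 14 reads of miR-142-3p and 13 of miR-223-3p, where no other library had fewer than 408 and 379. In normalized RPM the gap was smaller, at 39.5 and 36.6 against 64.9 and 40.4 in the next lowest libraries. Results that this library moves are therefore given with and without it.

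By level miR-142-5p led, with a median of 2570 normalized RPM over the 48 libraries (794.9 to 4365). MiR-150-5p followed at 429 (178 to 1564), miR-142-3p at 168 (39.5 to 294) and miR-223-3p at 95.7 (36.6 to 162). By mean RPM they ranked 34, 72, 109 and 131 of the 664 miRNAs with a read. Ranges of miR-142-3p and miR-223-3p overlapped widely, so the order of these neighbours holds for the medians and not for every library. In all libraries summed, 15.9 reads came from the 5p arm of miR-142 for each read of its 3p arm. The other strands of the remaining hairpins were scarce, with 0 to 48 reads of miR-223-5p and 11 to 33 reads of miR-150-3p in a library, and neither was tested.

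**Figure D1:**
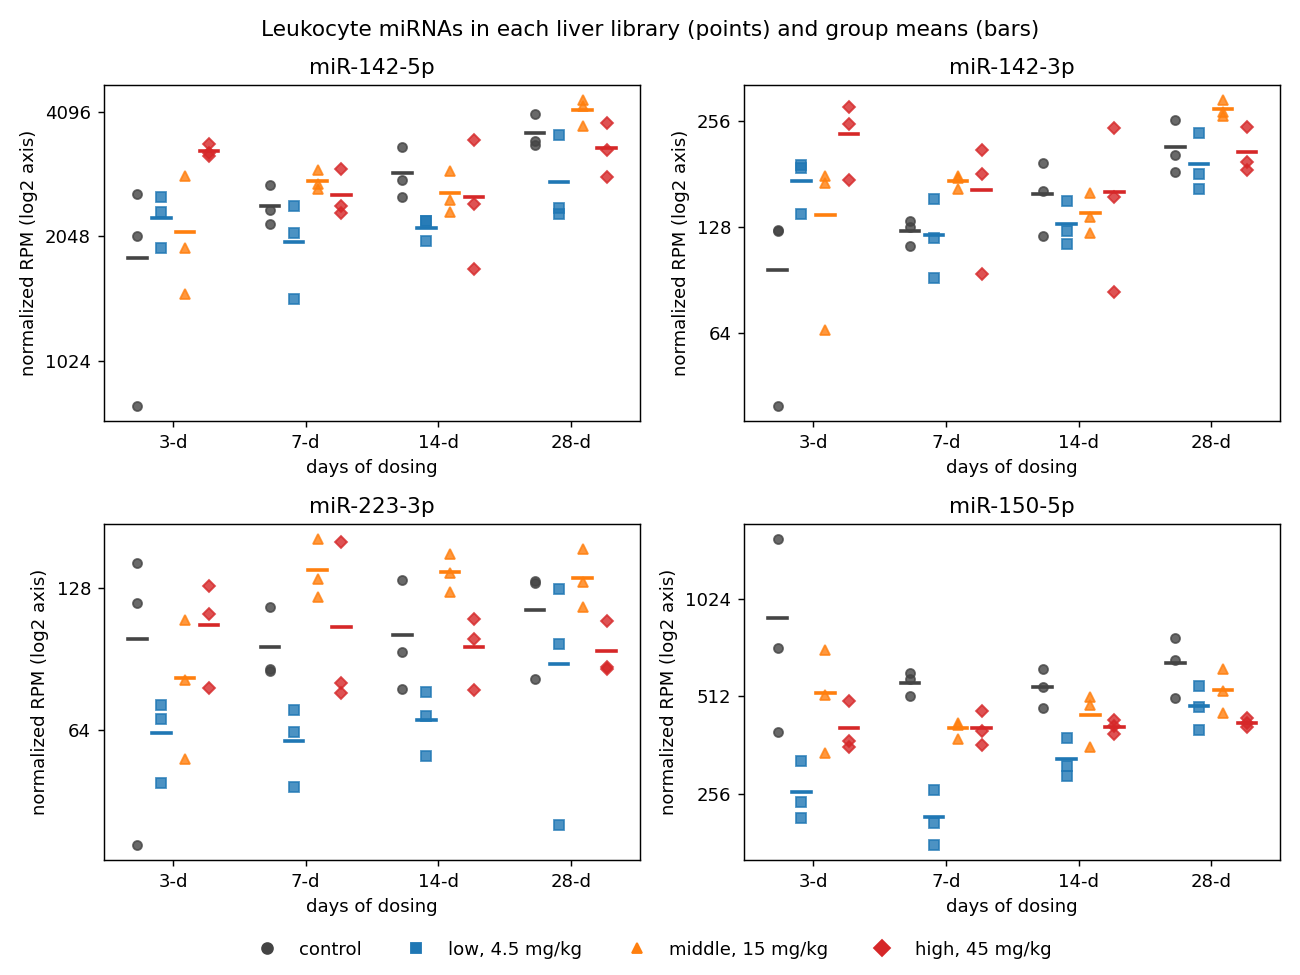
Normalized RPM (log2 axis) of the 4 members in each of the 48 libraries by days of dosing, with points for libraries, short bars for group means and colour and shape for dose. The 3 low dose libraries of miR-150-5p lie below their controls on days 3, 7 and 14, and control 3-d replicate 1 is the highest point of miR-150-5p and the lowest of the other 3 members.

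MiR-150-5p, the lymphocyte miRNA, was the member that changed most. Its log2 fold change against the time-matched controls was below 0 in 12 of 12 conditions, from -1.78 to -0.27, and 7 of the 301 tested miRNAs (2.33%) did the same. Its mean over the 12 conditions was -0.73 on the log2 scale (SE 0.11, adjusted p = 2.99e-06, edgeR quasi-likelihood test), a fall to 0.605 of the control level. Of all tested miRNAs, 15.9% passed this test as lower and 25.2% as higher. Without control 3-d replicate 1 the mean was -0.56 (SE 0.089, adjusted p = 7.50e-06, edgeR).

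At 7-d the 3 controls had 576, 603 and 511 normalized RPM of miR-150-5p. The low dose libraries had 208, 263 and 178. The middle dose libraries had 378, 418 and 425, and the high dose libraries 461, 362 and 400.2. All 9 treated libraries were thus below all 3 controls, and the low dose libraries were below the other 6. The low dose change was -1.38 (SE 0.15, adjusted p = 0.000239, edgeR), a level of 38.4% of control. The change met the study's rule for a differentially expressed miRNA (DEM), a fold change above 1.5 with an unadjusted p below 0.05, as did 10.6% of the tested miRNAs in the lower direction in this condition. The middle dose change was -0.47 (SE 0.097, adjusted p = 0.00760, edgeR) and passed the p threshold but not the fold threshold. The high dose change was -0.47 (SE 0.16, adjusted p = 0.121, edgeR).

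At 14-d miR-150-5p had 548, 472 and 621 normalized RPM in the controls. The low dose libraries had 312, 291 and 382, again below every control, and the change of -0.74 was a lower DEM (SE 0.17, adjusted p = 0.00565, edgeR), as were 9.63% of the tested miRNAs. Middle dose libraries had 356, 482 and 509 and overlapped the controls. High dose libraries had 392, 413 and 432, all below the controls, with a change of -0.41 (SE 0.14, adjusted p = 0.171, edgeR).

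At 28-d the control libraries of miR-150-5p spread from 504 to 776 normalized RPM, with the middle library at 662. High dose libraries had 412, 423 and 438, all below the controls, and the change of -0.61 was a lower DEM (SE 0.18, adjusted p = 0.0774, edgeR), with a background of 2.33%. Without control 28-d replicate 17 it was -0.46 and no DEM. Low dose libraries had 550, 403 and 476 and middle dose libraries 455, 620 and 531, and both sets overlapped the controls.

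At 3-d the controls of miR-150-5p themselves differed by more than the treated groups, with 1564 in replicate 1, 719 in replicate 2 and 397 in replicate 3. The low dose libraries had 323, 215 and 242, below all 3. Their change of -1.78 was a DEM (SE 0.53, adjusted p = 0.219, edgeR), with a background of 6.64% lower DEMs. Without control 3-d replicate 1 it was -1.10 (SE 0.28, adjusted p = 0.0375, edgeR), with 10.3% lower DEMs, and without low dose replicate 44 it was -1.66 and no longer a DEM. Middle dose libraries had 342, 516 and 710 and high dose libraries 356, 371 and 495, both within the range of the controls or partly below it, and the high dose change of -1.13 (SE 0.53, adjusted p = 0.400, edgeR) became a DEM without control replicate 3 (-1.48). Leaving out control replicate 1 instead gave -0.10 at the middle dose, from -0.77, and -0.45 at the high dose. The mean of the 3 doses at 3-d was -1.21 (SE 0.21, adjusted p = 5.15e-05, edgeR) with all controls and -0.55 (SE 0.20, adjusted p = 0.104, edgeR) without replicate 1, and 13.6% of tested miRNAs passed as lower with all controls. The same mean was -0.77 at 7-d (SE 0.22, adjusted p = 0.0137, edgeR), where 2.99% passed as lower, -0.48 at 14-d (SE 0.22, adjusted p = 0.184, edgeR) and -0.44 at 28-d (SE 0.22, adjusted p = 0.193, edgeR). The 7-d mean missed the threshold without control 7-d replicate 4 (-0.76, adjusted p = 0.0783, edgeR) or replicate 5 (-0.72, adjusted p = 0.0866, edgeR).

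Over all conditions miR-150-5p was a lower DEM in 4 of 12, against 5.98% of all pairs of a condition and a miRNA, and 19 of the 301 tested miRNAs (6.31%) were lower DEMs at least as often. Its treated and control libraries did not overlap, with the treated lower, in 7 of 12 conditions, against 14.3% of all pairs of a condition and a miRNA, and 12 of 301 miRNAs (3.99%) reached 7 or more. Of the 36 treated libraries, 16 were below the lowest of the 12 controls. They included every low dose library of 3-d, 7-d and 14-d, and this count was not made for other miRNAs. In the controls no difference over time was detected with all libraries, with 28-d minus 7-d at 0.20 (SE 0.28, adjusted p = 0.708, edgeR). The 7-d minus 3-d difference of -0.65 (SE 0.28, adjusted p = 0.148, edgeR) became 0.01 without control 3-d replicate 1 and -1.01 (adjusted p = 0.00330, edgeR) without replicate 3.

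**Figure D2:**
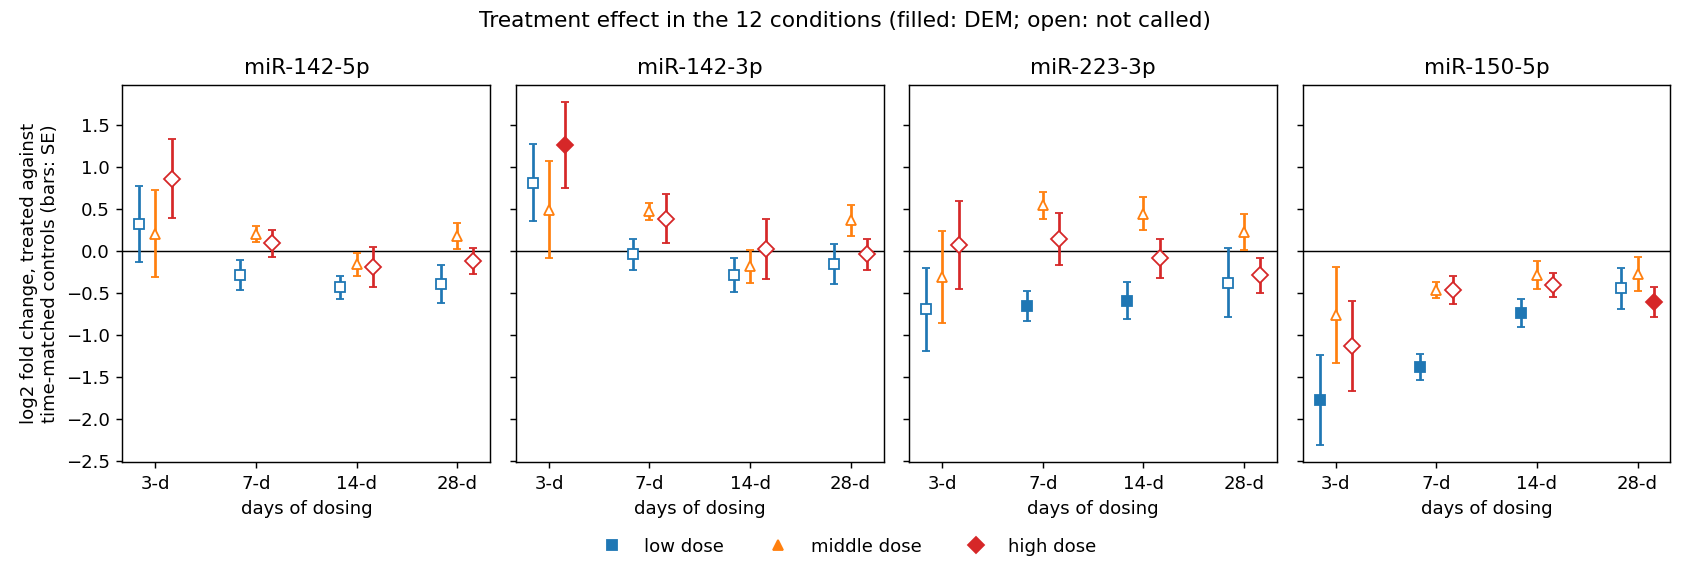
Log2 fold change of each member in the 12 conditions against time-matched controls, with bars for the SE and filled symbols for DEMs (n = 3 treated and 3 control libraries each, controls shared within a time point). All 12 values of miR-150-5p lie below 0, and the 2 filled symbols of miR-223-3p are the low dose at 7-d and 14-d.

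Averaged over the 4 time points, the change of miR-150-5p was -1.08 at the low dose (SE 0.14, adjusted p = 1.29e-07, edgeR), -0.45 at the middle dose (SE 0.14, adjusted p = 0.0113, edgeR) and -0.65 at the high dose (SE 0.14, adjusted p = 0.000732, edgeR). The shares of tested miRNAs that passed as lower at these doses were 21.3%, 13.3% and 6.64%. With control 3-d replicate 1 left out, the same averages were -0.92, -0.28 and -0.48, and each passed the threshold (largest adjusted p = 0.0396, edgeR). With all libraries the middle dose average missed the threshold with library size alone (-0.33, adjusted p = 0.0675, edgeR) and with a filter of at least 5 RPM in every library (-0.33, adjusted p = 0.0517, edgeR). The low dose had the largest fall of the 3 doses at each time point except 28-d, where it was at -0.44 and the high dose at -0.61. The low dose libraries of 3-d, 7-d and 14-d carry replicate numbers 40 to 48, and those of 28-d carry 28 to 30. Low dose and label order cannot be told apart here, and the labels do not say what the order stands for. With the time points kept apart, 3 of the 12 differences between doses passed. The effect at the middle dose was above that at the low dose by 1.01 at 3-d (SE 0.28, adjusted p = 0.0192, edgeR) and by 0.91 at 7-d (SE 0.28, adjusted p = 0.0135, edgeR). At 7-d the high dose effect was also above the low dose effect, by 0.91 (SE 0.28, adjusted p = 0.0320, edgeR), but this difference missed the threshold with TMM (0.84, adjusted p = 0.0776, edgeR), with DESeq2 size factors (0.87, adjusted p = 0.0797, edgeR) and with no filter (0.77, adjusted p = 0.179, edgeR). Of all tested miRNAs 11.6%, 28.9% and 8.64% passed in these differences. Both doses of a difference share their controls, so it compares the treated libraries directly. None of the 9 differences between time points passed for miR-150-5p (lowest adjusted p = 0.251, edgeR), with 1 at an unadjusted p below 0.05.

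MiR-223-3p, the myeloid miRNA, was lower at the low dose and was not called at the other doses. At 7-d the controls had 85.3, 86.3 and 116 normalized RPM and the low dose libraries 63.4, 48.5 and 70.7. All 3 low dose libraries were below the controls, and the change of -0.66 was a lower DEM (SE 0.18, adjusted p = 0.0177, edgeR), as were 10.6% of the tested miRNAs. Without control 7-d replicate 6 it was -0.50 and without low dose replicate 47 it was -0.52, and neither of these was a DEM. At 14-d the controls had 78.4, 93.7 and 133 and the low dose libraries 77.2, 68.5 and 56.4. The highest low dose library was just below the lowest control. The change of -0.60 was a lower DEM (SE 0.22, adjusted p = 0.0474, edgeR), as were 9.63% of the tested miRNAs. Of all pairs of a condition and a miRNA, 14.3% had all treated libraries below the controls. Without control 14-d replicate 15 it was -0.35 and without low dose replicate 42 it was -0.48, below the fold threshold in both cases.

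At 3-d the low dose libraries of miR-223-3p had 67.6, 49.4 and 72.3 normalized RPM and the controls 36.6 in replicate 1, 144 in replicate 2 and 119 in replicate 3. The low dose libraries were below 2 of the controls and above the library that stood apart. The change was -0.70 with all controls (SE 0.49, adjusted p = 0.427, edgeR) and -1.06 without replicate 1 (SE 0.19, adjusted p = 0.0143, edgeR), which made it a DEM, with 10.3% lower DEMs. At 28-d the low dose libraries had 128, 40.4 and 97.6 against 82.1, 133 and 131 in the controls, and the change was -0.38 (SE 0.41, adjusted p = 0.681, edgeR). The lowest of these, replicate 29, was the lowest treated library of miR-223-3p in the series.

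At the middle dose miR-223-3p was above the controls at 7-d. The libraries had 123, 134 and 162 normalized RPM, all above the 3 controls, and the change was 0.54 (SE 0.16, adjusted p = 0.0311, edgeR), a fold of 1.45 and so not a DEM. For miR-223-3p this was 1 of 12 conditions with all treated libraries above the controls. Of all pairs of a condition and a miRNA, 21.2% were of this kind. The 14-d libraries had 126, 137 and 151, which overlapped the highest control, with a change of 0.44 (SE 0.20, adjusted p = 0.127, edgeR). The 7-d change became a higher DEM without control 7-d replicate 6 (0.70) or middle dose replicate 34 (0.62), and the 14-d change without control 14-d replicate 15 (0.68). The middle dose change was 0.22 at 28-d. At 3-d it was -0.31 with all controls and -0.68 without control replicate 1, and none of these passed the threshold. The effect at the middle dose exceeded that at the low dose by 1.20 at 7-d (SE 0.34, adjusted p = 0.00777, edgeR) and by 1.03 at 14-d (SE 0.34, adjusted p = 0.0243, edgeR), where 28.9% and 23.3% of all tested miRNAs passed. The 14-d difference missed the threshold when any of 4 libraries was left out (low dose replicates 41 and 42, middle dose replicates 32 and 33), with adjusted p = 0.0542 to 0.102 in edgeR.

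Averaged over the 4 time points, miR-223-3p fell at the low dose, with a log2 fold change of -0.60 (SE 0.17, adjusted p = 0.00345, edgeR). In this average 21.3% of the 301 tested miRNAs passed as lower, and miR-223-3p ranked 96 by p. The average was 0.21 at the middle dose (SE 0.17, adjusted p = 0.343, edgeR) and -0.06 at the high dose (SE 0.17, adjusted p = 0.850, edgeR). When control 3-d replicate 1 was left out, the low dose average was -0.67 (SE 0.15, adjusted p = 0.000397, edgeR), the middle dose average 0.13 and the high dose average -0.13. The mean over all 12 conditions was -0.15 (SE 0.14, adjusted p = 0.393, edgeR), with a 95% interval from -0.41 to 0.12, and -0.23 without that library (SE 0.12, adjusted p = 0.139, edgeR).

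**Figure D3:**
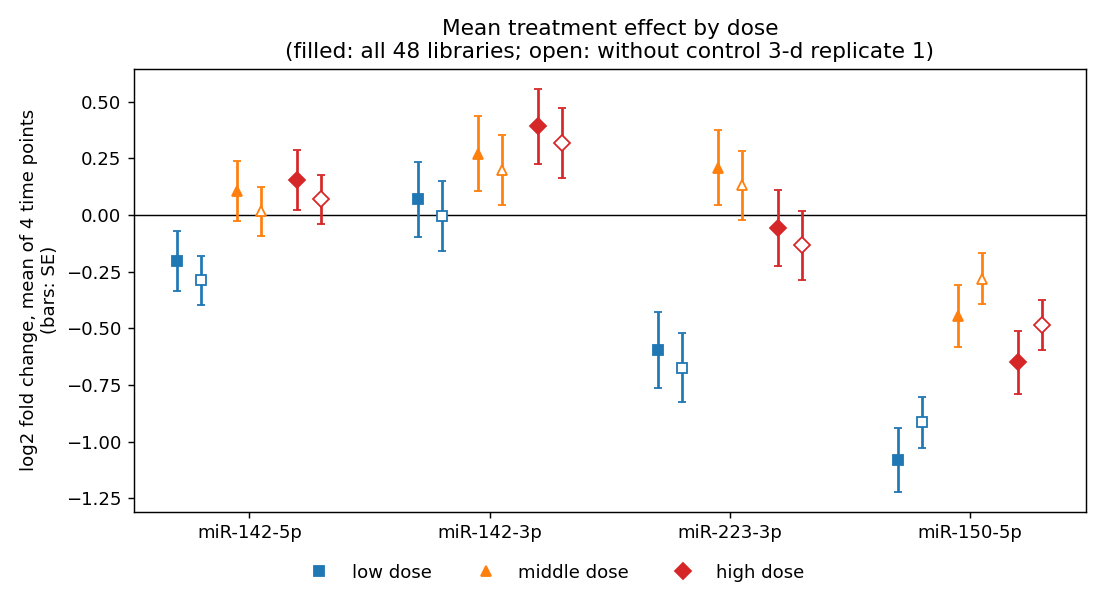
Mean log2 fold change over the 4 time points at each dose, with bars for the SE, for all 48 libraries (filled) and without control 3-d replicate 1 (open). The low dose is the lowest of the 3 doses for every member, at -1.08 for miR-150-5p and -0.60 for miR-223-3p, and leaving out the library moved no symbol of miR-150-5p across 0.

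At the low dose other cell-type miRNAs moved too. The summed level of 4 hepatocyte miRNAs (miR-122-5p, miR-122-3p, miR-192-5p and miR-194-5p) was 296612 to 355005 normalized RPM in the low dose libraries at 7-d and 213537 to 242876 in the controls. In the average over time points at the low dose, miR-122-5p (0.59) and miR-192-5p (0.42) passed as higher in edgeR and miR-122-3p (-0.52) as lower, while miR-194-5p was at -0.06, and the sum was mostly miR-192-5p. The ranges were 290107 to 312490 and 103835 to 228372 at 3-d. At 14-d the ranges were 348882 to 382506 and 239522 to 277207. At 28-d they overlapped, at 215238 to 352118 and 255143 to 285397. In the low dose average, 3 of 4 red blood cell strands and 3 of 7 stellate and smooth muscle strands also passed as lower. So did 1 of 5 bile duct strands and 1 of 6 further leukocyte strands, against 21.3% of all tested miRNAs. These included miR-429 (-1.01), miR-145-5p (-0.99) and miR-342-3p (-0.50). Of the same 4 lists, 0, 1, 1 and 3 strands passed as higher, and 0 of 2 endothelial strands passed. The share of all tested miRNAs that passed as higher in this average is not given here. The counts of higher strands, those of the hepatocyte list included, are therefore a description only. All values are shares of a library, and the part of these abundant miRNAs in the low dose values of miR-150-5p and miR-223-3p was not tested.

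MiR-142-5p, the more abundant strand of the pan-leukocyte miR-142, was a DEM in 0 of 12 conditions in edgeR, with 1 at an unadjusted p below 0.05. That was the low dose at 14-d, where its libraries had 2229, 2223 and 1991 normalized RPM against 2805, 2542 and 3372 in the controls. The groups did not overlap, and the change was -0.44 (SE 0.14, adjusted p = 0.0258, edgeR), a level of 73.9% of control and short of the fold threshold. In the 12 conditions the changes ran from -0.44 to 0.86. The highest, the high dose at 3-d, set libraries of 3247, 3423 and 3192 against controls of 795, 2596 and 2046 (SE 0.47, adjusted p = 0.432, edgeR), and it was 0.50 without control 3-d replicate 1 (SE 0.20, adjusted p = 0.422, edgeR). The mean over all conditions was 0.02 (SE 0.11, adjusted p = 0.893, edgeR), with a 95% interval from -0.19 to 0.23, and -0.07 without that library (adjusted p = 0.539, edgeR). The 28-d low dose change of -0.39 (SE 0.23, adjusted p = 0.427, edgeR) became a DEM without low dose replicate 28 (-0.63). The low dose average was -0.20 (SE 0.13, adjusted p = 0.208, edgeR), and without control 3-d replicate 1 it was -0.29 (SE 0.11, adjusted p = 0.0233, edgeR).

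MiR-142-3p, the minor strand, was a higher DEM in 1 condition, the high dose at 3-d, where 6.98% of the tested miRNAs were higher DEMs. Its libraries there had 282, 251 and 174 normalized RPM against 39.5, 126 and 125 in the controls. All 3 were above the controls, and the change was 1.26 (SE 0.51, adjusted p = 0.400, edgeR). It was 0.91 without control 3-d replicate 1 (SE 0.27, adjusted p = 0.357, edgeR), and without high dose replicate 22 (1.12) or 23 (1.22) it was no DEM. The mean of the 3 doses at 3-d was 0.80 (SE 0.29, adjusted p = 0.0316, edgeR) with all libraries and 0.51 (SE 0.30, adjusted p = 0.347, edgeR) without that control, and 17.6% of tested miRNAs passed as higher with all libraries. It also missed the threshold without middle dose replicate 10 (0.74) or 11 (0.72) or high dose replicate 22 (0.75). TMM (0.64), DESeq2 size factors (0.62), library size alone (0.73), no filter on low values (0.62) and the DESeq2 Wald test (0.62) ended the call as well. At 7-d the middle dose libraries had 176, 164 and 179 against 113, 128 and 133, all higher, with a change of 0.47 (SE 0.10, adjusted p = 0.00829, edgeR) and a fold of 1.39. In 4 of 12 conditions its treated libraries were all above the controls, against 21.2% of all pairs of a condition and a miRNA, and 12.1% of pairs were higher DEMs. Its mean over the 12 conditions was 0.24 (SE 0.14, adjusted p = 0.151, edgeR), and 0.17 without control 3-d replicate 1 (adjusted p = 0.281, edgeR). The high dose average of 0.39 (SE 0.17, adjusted p = 0.0705, edgeR) was 0.32 without control 3-d replicate 1 (adjusted p = 0.108, edgeR). It passed the threshold with library size alone (0.46) or without control 3-d replicate 2 or 3 (0.44 and 0.43), middle dose 3-d replicate 12 (0.39) or high dose replicates 24 at 3-d (0.43), 25 at 7-d (0.46) or 7 at 14-d (0.47).

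Neither strand of miR-142 showed a difference between doses or between time points past the threshold, in 0 of 21 comparisons each (edgeR), with 1 for miR-142-3p and 3 for miR-142-5p at an unadjusted p below 0.05. Both strands had higher values in the 28-d controls than in the 7-d controls, but neither difference passed the threshold. MiR-142-3p had 184, 205 and 259 normalized RPM in the 28-d controls against 113, 128 and 133 at 7-d, a difference of 0.79 (SE 0.33, adjusted p = 0.151, edgeR). MiR-142-5p had 3407, 3471 and 4053 against 2195, 2368 and 2716, a difference of 0.59 (SE 0.26, adjusted p = 0.175, edgeR). Over all tested miRNAs 5.98% passed in this difference. The groups did not overlap for either strand, but no share of miRNAs without overlap was computed for these controls.

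A ratio of 2 read counts within a library needs no scaling, so the members were also compared with each other. The ratio of miR-150-5p to miR-142-5p had a median of 0.195 in the 12 controls (0.148 to 1.97) and of 0.146 in the 36 treated libraries (0.0733 to 0.477). On the log2 scale it was lower after treatment by 0.73 averaged over the time points, a treated-minus-control difference of -0.73 (permutation test within time points, two-sided, adjusted p = 0.00138 over 6 ratios). It was lower at all 4 time points, from -1.64 at 3-d (-0.62 without control replicate 1) to -0.20 at 14-d, and -0.47 over all without control 3-d replicate 1 (adjusted permutation p = 0.0134, the highest for any library left out). The lymphocyte miRNA thus fell relative to the pan-leukocyte strand within the same libraries. The ratio to miR-142-3p fell by 0.96 (adjusted permutation p = 0.00138), with a difference of -0.69 without that library (adjusted permutation p = 0.0134).

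The ratio of miR-150-5p to miR-223-3p, lymphoid over myeloid, had a median of 5.46 in the controls (3.33 to 42.7) and 4.19 in the treated libraries (2.26 to 9.98). The difference was -0.59 on the log2 scale (permutation test, adjusted p = 0.00627). It was below 0 at each time point with all libraries. Without control 3-d replicate 1, the library at 42.7, it was -0.31 (permutation test, adjusted p = 0.0650), and the 3-d difference turned from -0.93 to 0.19. The ratio of miR-223-3p to miR-142-5p gave -0.14 (permutation test, adjusted p = 0.265). Against miR-142-3p it gave -0.37 (permutation test, adjusted p = 0.0334), which missed the threshold without control 3-d replicate 2, 7-d replicate 6, 14-d replicate 14 or 15, or 28-d replicate 17 (-0.35 to -0.33).

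The 2 strands of miR-142 did not keep a fixed ratio. For each read of miR-142-5p there were 0.0474 to 0.0638 reads of miR-142-3p in the controls (median 0.0541) and 0.0388 to 0.0889 in the treated libraries (median 0.0649). The treated libraries were higher by 0.23 on the log2 scale, a fold of 1.17 (permutation test, adjusted p = 0.00627), and the difference was above 0 at 3-d (0.38, or 0.35 without control replicate 1), 7-d (0.25), 14-d (0.10) and 28-d (0.18). Leaving out any single library gave 0.20 to 0.25. In 5 of 12 conditions the treated libraries were all above their controls, and in the other 7 they overlapped. No share over other strand pairs was computed to set beside this count. The conditions without overlap are given with their values. These were the low dose at 3-d, where 0.0730 to 0.0805 stood against 0.0485 to 0.0609, and the low and middle doses at 7-d and at 28-d. The margin was small at the middle dose, with a lowest value of 0.0554 against a highest control of 0.0542 at 7-d and 0.0644 against 0.0638 at 28-d.

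**Figure D4:**
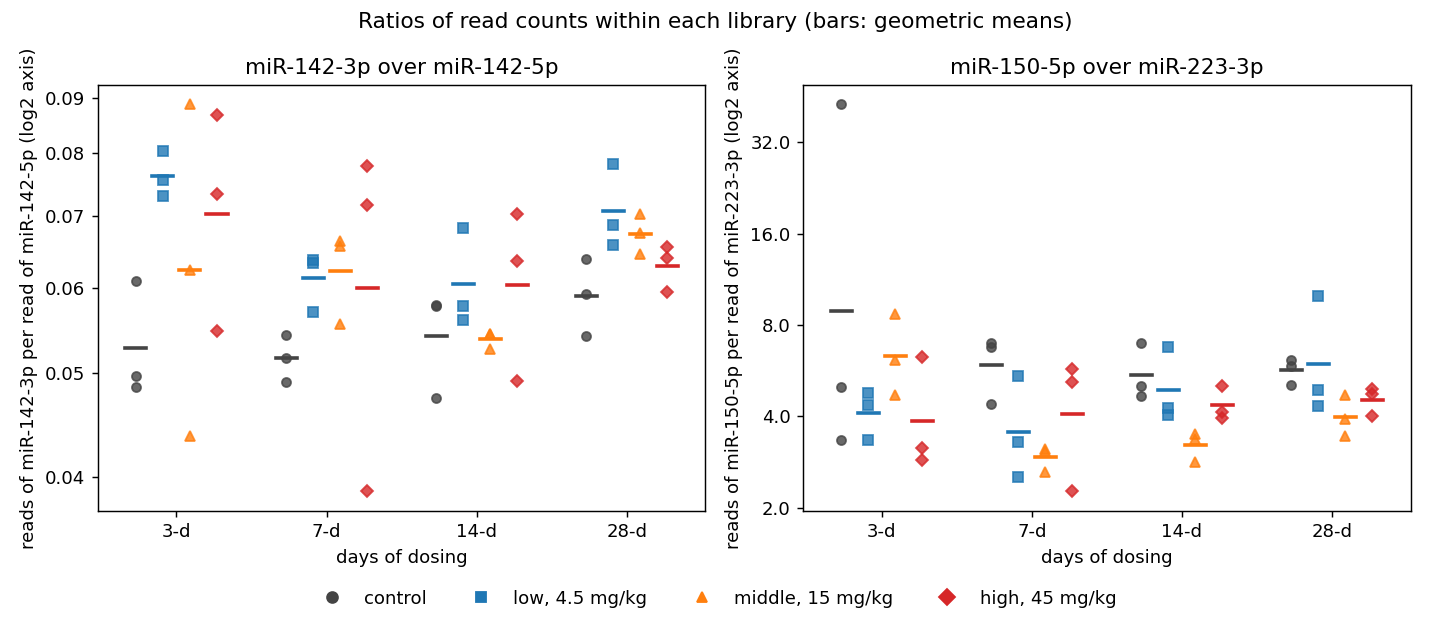
Reads of miR-142-3p per read of miR-142-5p (left) and of miR-150-5p per read of miR-223-3p (right) in each of the 48 libraries on log2 axes, with bars for geometric means of a group. The controls of the left panel stay between 0.0474 and 0.0638, and 1 control of the right panel, control 3-d replicate 1, lies at 42.7.

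A property chosen after the strand ratio had been seen, the base composition of the libraries, moved with it. A and U made up 65.2% of miR-142-3p and 66.7% of miR-142-5p, above the median of 54.4% of the 270 tested miRNAs with a RefSeq sequence. Per library, the median log2 level of the 85 miRNAs richest in A+U minus that of the 72 poorest was 1.70 in the median control and 1.99 in the median treated library. Its correlation with the log2 strand ratio was r = 0.48 over the 48 libraries, which share scaling and treatment groups, 0.56 without control 3-d replicate 1 and 0.44 after group means were removed. The part of base composition in the strand ratio, or in the ratios of other members to the miR-142 strands, was not tested. MiR-150-5p had no entry in the RefSeq table, so its content of A and U is not given.

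The relation between members was also examined within groups, where dose and time do not differ. Deviations of miR-142-3p and miR-142-5p from their group means correlated at r = 0.86 (rho = 0.84, n = 48 libraries, permutation p = 1e-05 for both, the smallest that the permutations can give), and at 0.81 without the 2 libraries farthest from the median. Those of miR-142-5p and miR-223-3p correlated at r = 0.78 (rho = 0.76, permutation p = 1e-05 for both), and at 0.67 without 2 libraries. Those of miR-142-3p and miR-223-3p gave r = 0.62 (rho = 0.64, permutation p = 0.00259 and 0.000250) and 0.58 without 2 libraries. Leaving out control 3-d replicate 1 gave r of 0.80, 0.66 and 0.46. Over the 10 relations computed, adjusted permutation p-values were 5e-05, 5e-05 and 0.00863, and the last was 0.0599 without that library.

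MiR-150-5p showed no relation past the threshold to the other members, with r = -0.49 to miR-142-3p, -0.38 to miR-142-5p and -0.21 to miR-223-3p (lowest adjusted permutation p = 0.132), and values of -0.23, 0.07 and 0.25 without control 3-d replicate 1. Its deviations went with the summed red blood cell miRNAs at r = 0.65 (rho = 0.37, permutation p = 0.0159 and 0.0451, adjusted 0.0318 and 0.0903), but at 0.30 without the 2 farthest libraries and at 0.33 without control 3-d replicate 1 (adjusted permutation p = 0.143), so the relation rested on those libraries. MiR-223-3p and the red blood cell sum gave r = -0.66 (rho = -0.51, permutation p = 0.0125 and 0.00958, adjusted 0.0312 and 0.0239), -0.51 without 2 libraries and -0.43 without control 3-d replicate 1 (adjusted permutation p = 0.128).

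Red blood cell miRNAs were lower after treatment in the mean over the 12 conditions, but not at every dose and time point. Of miR-451-5p, miR-144-3p, miR-144-5p and miR-486, 3 of 4 passed the test of the mean over 12 conditions as lower, where 15.9% of all tested miRNAs did, with a list median of -0.49 against 0.06 over all tested miRNAs. MiR-486 changed by -1.11 (SE 0.23, adjusted p = 0.000239, edgeR) and by -0.47 (SE 0.16, adjusted p = 0.0191, edgeR) without control 3-d replicate 1, and 3 of 4 passed without it as well (16.6% of all tested miRNAs). By dose, 3 of 4 passed as lower at the low dose, 3 of 4 at the middle dose and 1 of 4 at the high dose. The shares of all tested miRNAs were 21.3%, 13.3% and 6.64%. The sum of the list was 2954 to 81096 normalized RPM in the controls and 786 to 9240 in the treated libraries. In the low dose group at 7-d, where miR-150-5p was 38.4% of control, the sum was 3783 to 4523 against 3815 to 6241 in the controls. In the low dose group at 14-d, where miR-150-5p was also a lower DEM, the sum was 5144 to 5940 against 4042 to 5331. Against the same controls, the middle dose sum was lower, at 1664 to 1928 at 7-d and 2074 to 3138 at 14-d. The high dose sum at 7-d was lower as well, at 786 to 3416. The log2 fold change of miR-150-5p was below 0 in these groups too. The part of blood content in the fall of miR-150-5p was not tested.

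Of 11 further strands known from leukocytes and immune activation, 6 could be tested, and 2 passed as higher and 1 as lower. MiR-146b-5p, induced by inflammatory signals, rose by 0.74 (SE 0.14, adjusted p = 0.000139, edgeR), and miR-155-5p, induced in activated lymphocytes and macrophages, rose by 0.60 (SE 0.15, adjusted p = 0.00211, edgeR). MiR-342-3p, found in lymphocytes, fell by 0.26 on the log2 scale (SE 0.10, adjusted p = 0.0396, edgeR), but its change without control 3-d replicate 1 was -0.16 and did not pass (adjusted p = 0.159, edgeR). MiR-146a-5p was at -0.05, miR-181a-5p at -0.18 and miR-181b-5p at 0.16, none past the threshold. The change of miR-181a-5p was 0.08 without control 3-d replicate 1. The list median was 0.06, as over all tested miRNAs. In the lists for other liver cells, 1 of 4 hepatocyte strands was higher and 1 lower, 0 of 2 endothelial strands passed, 2 of 7 stellate and smooth muscle strands were lower, and 1 of 5 bile duct strands was higher and 1 lower. These counts stand against 25.2% higher and 15.9% lower over all tested miRNAs. Without control 3-d replicate 1 the hepatocyte list had 2 lower and the stellate list 3, against 16.6% of all.

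**Figure D5:**
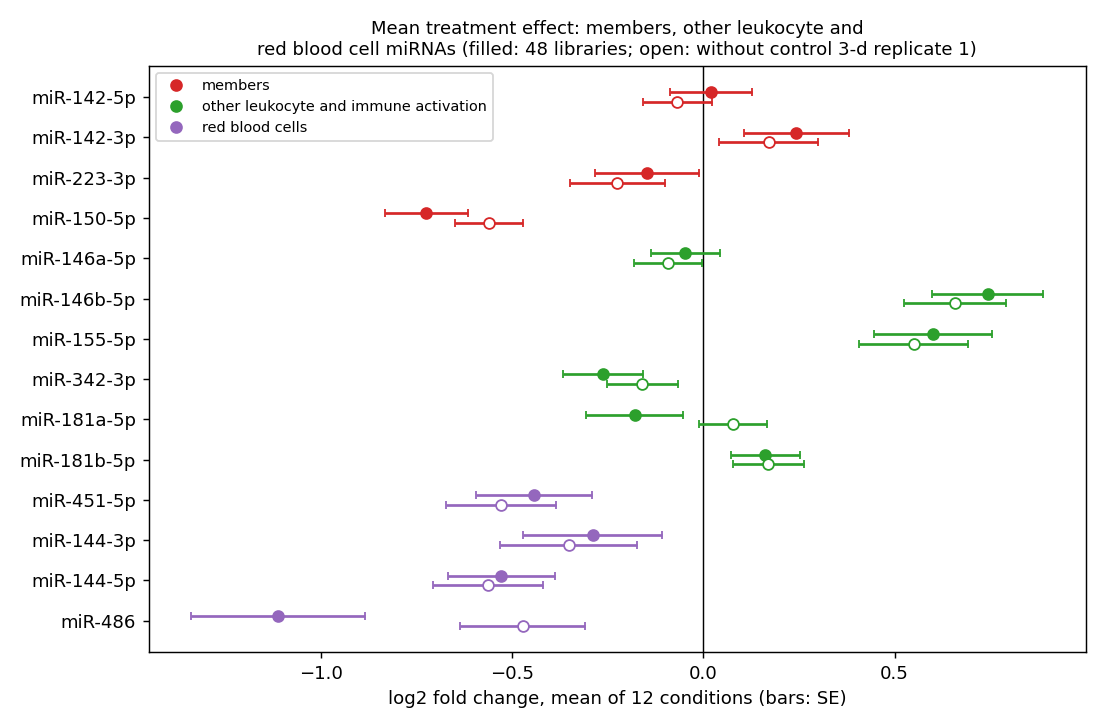
Mean log2 fold change over the 12 conditions, with bars for the SE, of the 4 members, 6 other leukocyte and immune activation miRNAs and 4 red blood cell miRNAs, for all 48 libraries (filled) and without control 3-d replicate 1 (open). With all libraries miR-150-5p lies at -0.73, on the side of the red blood cell miRNAs. Of the other leukocyte miRNAs, miR-146b-5p (0.74), miR-155-5p (0.60) and miR-181b-5p (0.16) lie above 0. MiR-342-3p (-0.26), miR-181a-5p (-0.18) and miR-146a-5p (-0.05) lie below 0.

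The miRNAs whose levels ran most like each member over the 48 libraries were found by Spearman's rho, as a description. For miR-142-3p these were miR-33-5p (0.84), miR-32-5p (0.82) and miR-29b-3p (0.82), and for miR-142-5p they were miR-27a-3p (0.82), miR-141-3p (0.76) and miR-362-3p (0.72). For miR-223-3p they were miR-128-3p (0.83), miR-221-5p (0.79) and miR-98-3p (0.75). MiR-150-5p was nearest to miR-125a-5p (0.73), miR-30c-5p (0.70) and miR-365-3p (0.68), and without control 3-d replicate 1 miR-29a-3p came first (0.76). Between members the highest rho was 0.83, for the strands of miR-142, and the lowest 0.08, for miR-142-3p and miR-150-5p. These libraries share scaling and treatment groups, so no p is attached.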

How the data were processed

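Small RNA of rat liver was sequenced in 48 libraries, 3 for each of 16 groups. Per the study's methods, reads of 18 to 25 bases remained after adaptor removal, and the authors counted them per mature miRNA with miRDeep2 and miRBase release 21. The submitters' processing notes name the build rn5 and FastQC. The deposited values are raw counts, one row per precursor, and each member is listed for 1 precursor. Read counts were tested in edgeR 4.0.16 (R 4.3.3), with the quasi-likelihood F-test, for miRNAs of at least 5 RPM in at least 3 libraries. Upper quartile scaling and the DEM thresholds were those of the study's methods. Each condition was fitted with its 6 libraries. Means over conditions, differences of effects and controls over time were contrasts of a fit of 16 group means, with Benjamini-Hochberg adjustment over the 301 miRNAs of a contrast. Ratios (count + 0.5) and within-group correlations of log2 (normalized RPM + 1) used 100000 permutations. Other scalings, filters, control sets, DESeq2 and the omission of each library were tried as alternatives. Scripts were tested on simulated data. Replicates differed by more than sampling noise (lowest chi-square per degree of freedom 96.1). The members, lists and tests were chosen with earlier results of these data known. Named miRNAs are the members, the miRNAs of the lists and the 3 nearest patterns of each member.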

Additional observations from a re-analysis of the deposited data

Results flagged for a closer look

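For the members, 5 differences between doses passed the threshold in edgeR's test of the difference itself, out of 21 differences tested for each of 4 members, and both doses of each share their controls. For miR-150-5p the treatment effect at the middle dose exceeded that at the low dose by 1.01 at 3-d and by 0.91 at 7-d on the log2 scale, and the effect at the high dose exceeded that at the low dose by 0.91 at 7-d. The first missed the threshold without low dose replicate 44, low dose replicate 45 or middle dose replicate 12, the second without low dose replicate 48, and the third without any of low dose replicates 46, 47 and 48 or high dose replicates 25 and 26. The third also missed it with TMM, with DESeq2 size factors and with no filter on low values, and the first with no filter (1.04, adjusted p = 0.0512, edgeR). For miR-223-3p the middle dose effect exceeded the low dose effect by 1.20 at 7-d and by 1.03 at 14-d, and the first of these passed whichever library was left out (highest adjusted p = 0.0455, edgeR).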

How the results depend on the processing

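Of 85 reported values and counts, recomputed 3073 times, 2915 recomputations were classed as unchanged. For a value this meant the same direction and side of the threshold, and for a count a move of at most 1.5-fold. No value that changed sign passed the threshold. The lower DEMs of miR-150-5p, 4 in the main setting, numbered 2 to 6 over the settings and 3 to 5 over single libraries left out. The mean of miR-150-5p over the 12 conditions passed throughout, at -0.87 to -0.56 over 7 settings and -0.82 to -0.56 over single libraries left out. Scaling moved the median of all miRNAs by up to 0.28 in a condition. With library size alone miR-150-5p at the middle dose and 28-d was 7.52e-05, but it was below that median in 12 of 12 conditions under each of 4 scalings.

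Library size alone gave 2 higher DEMs for miR-142-3p and 2 for miR-223-3p, 1 difference of effects for miR-142-5p, 0.020 for the high dose mean of miR-223-3p, and r = 0.62 (no longer past) for miR-150-5p with red blood cells. No filter gave 1 lower DEM for miR-142-5p, 1 difference for miR-150-5p, and -0.020 for the low dose mean of miR-142-3p. At least 5 RPM in every library gave 1 lower DEM and 1 difference for miR-142-5p and 1 higher DEM for miR-223-3p. The single fit of 48 libraries gave 1 lower DEM for miR-223-3p, 2 higher for miR-142-3p and 1 higher for miR-142-5p, and adjusted p-values left 2 lower for miR-150-5p and 0 higher for miR-142-3p. The mean of miR-142-5p was -0.017 with TMM, -0.036 with DESeq2 size factors, -0.037 with the DESeq2 test, -0.092 unfiltered and -0.13 without the 3-d libraries. Without these, miR-142-3p at the low dose was -0.16, miR-142-5p at the high dose -0.076, and the ratios of miR-223-3p to miR-142-5p and miR-142-3p were 0.055 and -0.12. With 12 controls pooled, miR-142-5p was -0.25 (low 3-d) and 0.039 (low 28-d) and miR-142-3p -0.12 (middle 3-d). With 11, chosen after seeing the data, these 3-d values were -0.34 and -0.20.

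Leaving out single libraries gave 0 to 2 higher DEMs for miR-142-3p, 1 to 3 lower and 0 to 1 higher for miR-223-3p, 0 to 1 lower for miR-142-5p, 1 to 4 differences for miR-150-5p and 1 to 2 for miR-223-3p. The mean of miR-142-5p ran from -0.068 to 0.11, its low 3-d value from -0.035 to 0.67, the low dose mean of miR-142-3p from -0.0037 to 0.12, the high dose mean of miR-223-3p from -0.16 to 0.020, and the 7-d minus 3-d control difference of miR-150-5p from -1.01 to 0.014. Ratios ran from -0.77 to -0.31 (miR-150-5p to miR-223-3p) and -0.42 to -0.33 (miR-223-3p to miR-142-3p). Without control 3-d replicate 1, r was 0.46 (miR-142-3p, miR-223-3p), 0.073 and 0.25 (miR-150-5p with miR-142-5p and miR-223-3p), -0.43 and 0.33 (red blood cells with miR-223-3p and miR-150-5p). The causes were not tested. No paired analysis was possible because the replicate numbers run from 1 to 48 and no groups share one.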
